A study of Mus musculus with 20 samples.

Results

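The nuclear genes for respiratory complexes III, IV and V, with cytochrome c, were followed in the plantaris muscle of old mice after mechanical overload (MOV), with and without dasatinib and quercetin (D + Q). The genes were chosen by name alone, as those beginning with Uqcr, Cox4i, Cox5, Cox6, Cox7, Cox8 or Atp5, together with Cyc1 and Cycs, and 7 names containing -ps (the mark of a pseudogene) were left out. These names took in 44 of the 22660 genes in the table, of which 9 belong to complex III, 1 is cytochrome c, 17 belong to complex IV and 17 to complex V.

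Complex III passes electrons from coenzyme Q to cytochrome c, a small carrier between the membranes, and complex IV (cytochrome c oxidase) hands them to oxygen. The proton gradient that results drives complex V, the ATP synthase, in which protons flow through a ring of c subunits and turn the stalk inside the catalytic head. Complexes III, IV and V each combine proteins encoded in the nucleus with a few encoded by mitochondrial DNA, and complex IV has pairs of nuclear genes for a single position, one that is found in most tissues and one that heart and skeletal muscle favour.

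RNA was measured in 20 mice that the labels give as 2 years old, and the study's methods describe its old mice as male C57BL/6 J. MOV was produced in both legs by cutting away part of the gastrocnemius and soleus, which leaves the plantaris to carry the load, while sham mice had the skin opened only. Vehicle or D + Q was given to 5 sham mice and 5 MOV mice each, which makes 4 groups of separate animals, and muscle was taken on day 14 after surgery. D + Q, which combines a tyrosine kinase inhibitor with a plant flavonoid and is used to remove senescent cells, was given by gavage, with dasatinib at 5 mg/kg and quercetin at 50 mg/kg. The treatment text dates the doses to days 7 and 10, whereas the design text dates them to days 7 and 14 for the shams, so the time from last dose to collection in the shams is uncertain. No younger mice were analysed here. Each library is one whole muscle with every cell type in it, so fewer cells of a type and less RNA per cell cannot be told apart.

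The libraries held between 17887532 and 26234518 estimated counts, and the 44 genes took 1.50% to 1.88% of them in vehicle sham, 1.42% to 1.64% in D + Q sham, 1.37% to 1.49% in vehicle MOV and 1.29% to 1.36% in D + Q MOV. Vehicle sham mouse 2 had the highest value of its group in 36 of 42 genes and D + Q sham mouse 1 in 32, while vehicle sham mouse 4 had the lowest in 30. The summed level of 12 skeletal fibre markers was 181096 to 203592 CPM (counts scaled to a common library size) in vehicle sham and 101579 to 137418 in vehicle MOV. That of 8 fibroblast markers was 491 to 729.6 CPM in vehicle sham and 6178 to 12232 in vehicle MOV, and that of 8 macrophage markers 55.7 to 150.4 against 296 to 888. These markers of fibres and of other cells moved with MOV alongside every result below, and the part of cell composition was not tested.

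Of the 44 genes, Cox6b2 (0 to 18 counts in any mouse) and Cox6c2 (1 to 10 counts) were near the floor. Neither had at least 10 counts in 5 mice of the MOV and sham comparisons, which left 42 genes to test there. CPM were scaled between libraries with TMM, a method that centres the bulk of genes on no change, and genes were tested with edgeR's quasi-likelihood test, with p-values adjusted over every gene tested.

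With vehicle, MOV muscle had less RNA than sham for 36 of the 42 genes and more for 2, taking an adjusted p under 0.05 as the limit. Over all 14601 genes tested, 29.8% were lower and 30.7% higher by the same rule. The median log2 change of the 42 genes was -0.43, against -0.02 over all genes tested. By complex, 9 of 9 complex III genes, cytochrome c, 11 of 15 complex IV genes and 15 of 17 complex V genes fell, and the 2 that rose, Cox6a1 and Cox8a, both belong to complex IV. All 5 MOV mice lay below all 5 sham mice in 34 of the 42 genes and above them in 1, where 22.8% and 23.7% of all genes tested separated in those directions.

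The scaling decides how many of these falls are called. When libraries were scaled by total counts alone, the median over all genes moved to 0.36 and that of the 42 genes to -0.06. The distance of the members from all genes was -0.42 under either scaling. A change of scaling shifts every gene by nearly the same amount, so that distance could hardly differ and is no check of the falls. On total counts 11 genes were lower and 5 higher, where 9.99% of all genes were lower and 52.5% higher. The 11 were Uqcrc1, Uqcrc2, Uqcrfs1, Cycs, Cox5a, Cox6a2, Cox8b, Atp5a1, Atp5b, Atp5c1 and Atp5o, and they were lower with TMM too. The 5 were Cox6a1, Cox8a, Cox4i2, Cox7a2l and Atp5g2, of which the first 2 were also higher with TMM. These lists were named after their values had been seen.

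**Figure D1:**
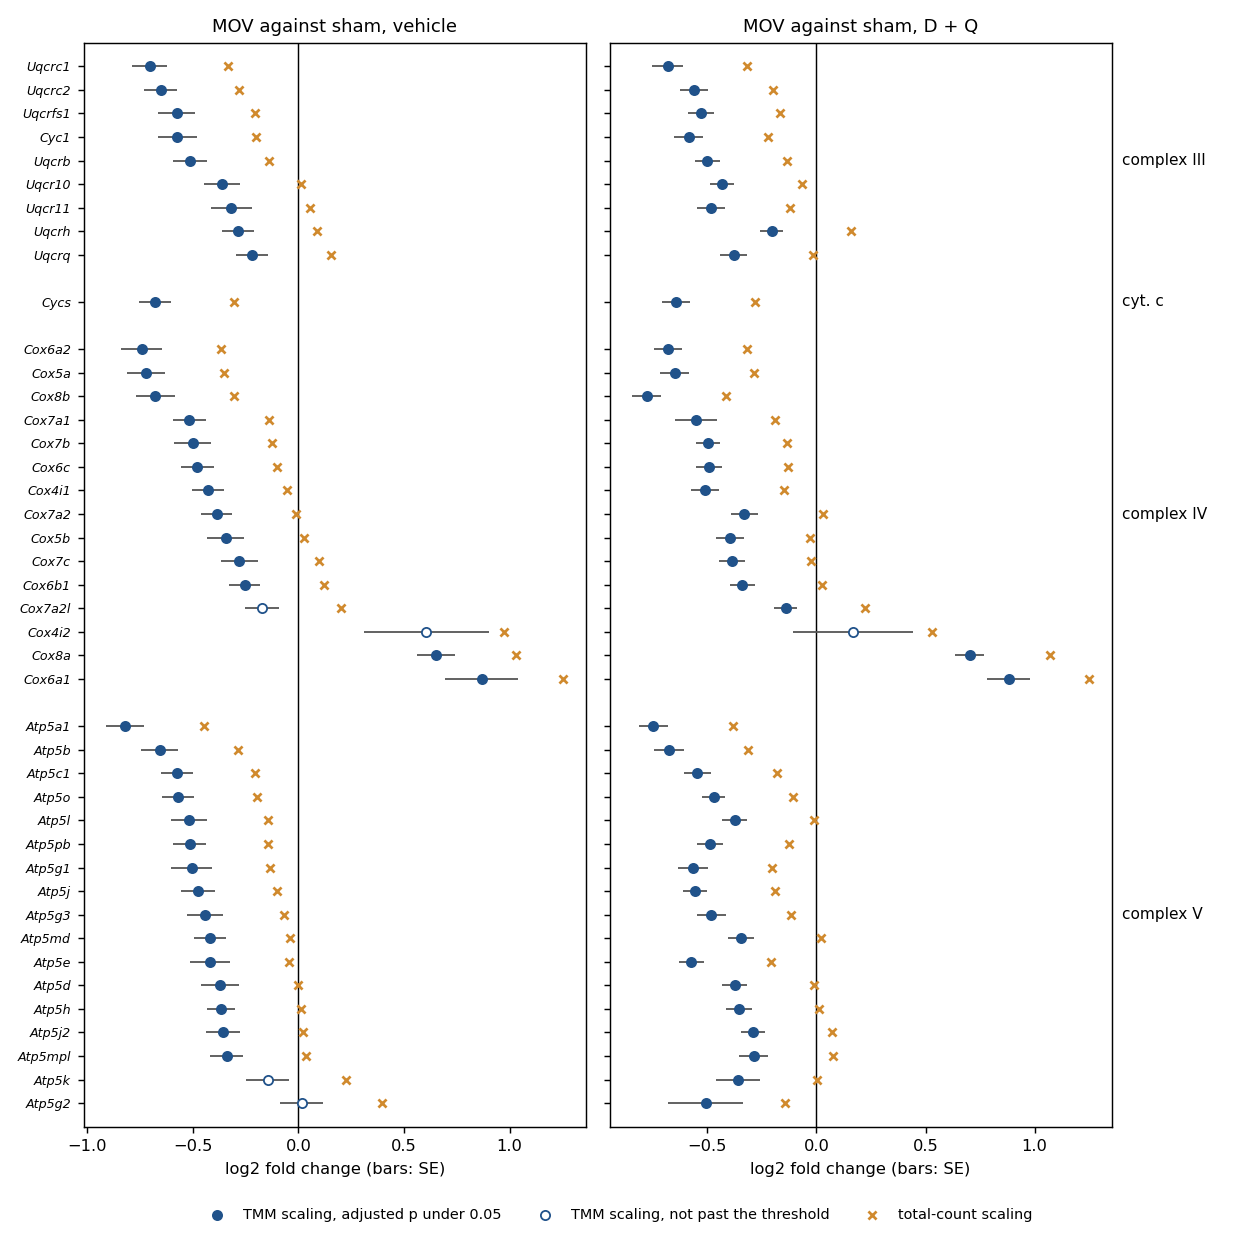
Log2 fold change of MOV against sham (horizontal axis, ± SE, 5 mice per group) for 42 nuclear genes of complexes III, IV and V and cytochrome c, with vehicle on the left and D + Q on the right, where filled points have an adjusted p under 0.05 in edgeR and orange crosses show the change with libraries scaled by total counts. With vehicle 36 genes lie to the left as filled points and 2, Cox6a1 and Cox8a, to the right, and the crosses sit to the right of the points throughout.

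With D + Q, the same comparison in 10 other mice gave 39 genes lower and 2 higher of 42, beside 30.9% lower and 34.4% higher among 14913 genes. The median of the members was -0.49, against 0.02 over all genes. Complex III had 9 of 9 genes lower, complex IV 12 of 15 lower and 2 higher, and complex V 17 of 17 lower, with cytochrome c lower as well. On total counts 20 genes were lower and 4 higher (11.1% and 56.2% of all genes), with a median of -0.12 against 0.39. Groups separated completely in 37 genes downward and 2 upward, beside 26.9% and 26.2% of all genes.

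With TMM, all 9 complex III genes were lower with vehicle, from -0.22 to -0.70, with a median of -0.51. On total counts 3 of the 9 were called lower and 0 higher, 4 stood above 0, and the median was -0.14. By that scaling 9.99% of all genes were lower and 52.5% higher. Uqcrc1 and Uqcrc2 encode the core proteins of the complex. Uqcrc1 stood at 687, 805, 687, 642 and 645 CPM in vehicle sham mice 1 to 5 and at 457, 443, 386, 387 and 437 CPM in vehicle MOV. Every MOV mouse was below every sham mouse, and the log2 change was -0.70 (SE 0.084, adjusted p 4.62e-06). With D + Q, sham mice had 732, 649, 633, 557 and 640.2 CPM and MOV mice 404, 399, 367, 403 and 362 CPM. The groups again did not overlap, and the change was -0.68 (SE 0.070, adjusted p 1.56e-07).

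Uqcrc2 fell by 0.65 on the log2 scale with vehicle and by 0.56 with D + Q. Uqcrfs1, the Rieske iron-sulphur protein, and Cyc1, the haem protein that hands electrons to cytochrome c, are the redox subunits encoded in the nucleus. Uqcrfs1 went from a mean of 468 ± 56.9 CPM (SD, n = 5) in vehicle sham to 311 ± 22.7 CPM in vehicle MOV, a log2 change of -0.58 (adjusted p 4.95e-05), and changed by -0.53 with D + Q. Cyc1 changed by -0.57 with vehicle and -0.59 with D + Q.

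The smaller subunits moved less. Uqcrb, which binds near the quinone site, changed by -0.51 with vehicle. Uqcrq had 287, 359, 310.0, 289 and 319.8 CPM in vehicle sham and 254, 276, 248, 280.3 and 274 CPM in vehicle MOV, so that every MOV mouse lay below the sham mice although the shift was small, -0.22 (SE 0.077, adjusted p 0.0215). On total counts it stood at 0.15. Uqcrh, the hinge protein, was the complex III gene with the smallest change with D + Q, -0.21 (adjusted p 0.00222), and on total counts it turned to 0.16 (adjusted p 0.010).

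Cytochrome c, encoded by Cycs, had 320.4, 345, 309, 277 and 308 CPM in vehicle sham mice and 187, 204, 176, 193 and 205 CPM in vehicle MOV mice. In D + Q sham the values were 296, 276, 277, 244 and 257 CPM, and in D + Q MOV 163, 176, 156, 178 and 162 CPM. All MOV mice lay below all sham mice under both treatments, with log2 changes of -0.68 (SE 0.074, adjusted p 1.94e-06) and -0.64 (SE 0.063, adjusted p 7.82e-08). On total counts the changes were -0.30 and -0.28.

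With TMM, complex V fell by a median of 0.44 with vehicle and 0.48 with D + Q on the log2 scale. On total counts its medians were -0.07 and -0.12. Of its 17 genes, 4 were then called lower and 1 higher with vehicle, beside 9.99% and 52.5% of all genes. With D + Q 8 were lower and 0 higher, beside 11.1% and 56.2%. In the catalytic head of complex V, Atp5a1 (the alpha subunit) fell from 2685 ± 295 CPM in vehicle sham to 1509 ± 101 CPM in vehicle MOV (SD, n = 5), a change of -0.82 (SE 0.090, adjusted p 1.92e-06). With D + Q it changed by -0.75. Atp5b, the beta subunit that carries the catalytic sites, had 2890, 3300, 2932, 2612 and 2814 CPM in vehicle sham and 1899, 1962, 1713, 1653 and 1921 CPM in vehicle MOV. The groups were far apart, at -0.66 (SE 0.086, adjusted p 1.06e-05), and with D + Q the change was -0.68. Atp5c1, the gamma subunit of the rotating stalk, changed by -0.58 with vehicle and Atp5e, the epsilon subunit beside it, by -0.57 with D + Q.

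Subunit c, which forms the rotor ring, is made from 3 genes whose mature proteins are the same and whose targeting sequences differ. Atp5g1 fell by 0.50 on the log2 scale with vehicle and 0.57 with D + Q, and Atp5g3 by 0.44 and 0.48. Atp5g2 behaved otherwise with vehicle, at 37.9, 39.6, 49.3, 38.1 and 36.9 CPM in sham and 43.0, 35.7, 34.1, 46.8 and 42.4 CPM in MOV. Those groups overlapped, with a change of 0.02 (SE 0.10, adjusted p 0.90).

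With D + Q, Atp5g2 stood at 39.2, 30.2, 58.5, 49.2 and 44.4 CPM in sham and at 33.6, 23.1, 28.3, 32.6 and 33.5 CPM in MOV. The change was -0.51 (SE 0.17, adjusted p 0.0241), with D + Q sham mouse 2 inside the range of the MOV mice. The difference between the responses of Atp5g2 under the 2 treatments, -0.56 (SE 0.20), had an unadjusted p of 0.0133 and an adjusted p of 0.792 in edgeR. Among the other complex V genes, Atp5k, a membrane subunit, changed by -0.15 with vehicle (adjusted p 0.226), and the smallest fall with D + Q was that of Atp5mpl, -0.29, which stood at 0.077 on total counts.

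Atpif1 encodes the inhibitor protein of complex V and has no name of the kind that chose the 44. It moved the other way, from 13.1 to 16.5 CPM in vehicle sham to 19.8 to 28.7 CPM in vehicle MOV, and from 13.0 to 15.5 to 20.7 to 28.2 CPM with D + Q. The groups did not overlap, and the changes were 0.62 (SE 0.11) and 0.81 (SE 0.091).

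Complex IV was the most varied of the complexes, with TMM changes from -0.74 to 0.87 among its 15 tested genes with vehicle. On total counts 3 of the 15 were called lower and 4 higher with vehicle, with a median of -0.01. By that scaling 9.99% of all genes were lower and 52.5% higher. Cox5a, a subunit on the matrix side, fell by 0.72 on the log2 scale with vehicle (SE 0.090, adjusted p 7.17e-06), from 421 ± 38.0 to 253 ± 29.5 CPM. Cox6b1, which links the monomers of the complex, changed by -0.25 and -0.34 with vehicle and D + Q, and stood at 0.12 and 0.024 on total counts. Cox7a2l, named as a Cox7a relative and known for joining complexes III and IV, changed by -0.17 with vehicle (adjusted p 0.0764) and by -0.14 with D + Q (adjusted p 0.0266), and by 0.20 and 0.22 on total counts.

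Among the pairs of genes for a single position of complex IV, Cox6a1 and Cox6a2 moved in opposite directions with MOV, as did Cox8a and Cox8b. Cox6a2 and Cox8b are the forms that heart and skeletal muscle favour, and Cox6a1 and Cox8a the forms of most other tissues. On GRCm39, Cox6a1 lies at chr5:115483701-115487050, Cox6a2 at chr7:127804607-127805559, Cox8a at chr19:7192515-7194997 and Cox8b at chr7:140477069-140480359, each on the minus strand. The exons of Cox8b share 1231 bases with Psmd13 on the other strand and those of Cox6a2 share 70 bases with Itgad. Whether the counting used strand is not given in the sources used here, so reads of such partners cannot be told apart. The exons of Cox6a1 and Cox8a share no bases with another annotated gene.

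The sequences before the starts of Cox6a1 and Cox8a, which rose, and of Cox8b and Cox7a1, which fell, are shown. They are the 250 bases upstream of each RefSeq start on GRCm38.p6, 5′ to 3′ on the strand of the gene, at chr5:115348959-115349208 (minus strand) for Cox6a1, chr19:7217617-7217866 (minus strand) for Cox8a, chr7:140900447-140900696 (minus strand) for Cox8b and chr7:30183921-30184170 (plus strand) for Cox7a1. Capitals mark matches to the motifs listed in the next paragraph. Cox8a and Cox8b are the only pair with both sequences shown, as no promoter was found for Cox6a2. Cox7a2, the partner of Cox7a1, also fell with TMM and held none of these motifs, and its sequence is not shown.
Cox6a1: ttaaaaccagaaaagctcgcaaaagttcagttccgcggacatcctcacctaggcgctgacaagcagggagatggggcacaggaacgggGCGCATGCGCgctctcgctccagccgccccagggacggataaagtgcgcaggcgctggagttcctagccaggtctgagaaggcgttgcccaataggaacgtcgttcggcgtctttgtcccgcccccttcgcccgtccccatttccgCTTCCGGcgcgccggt
Cox8a: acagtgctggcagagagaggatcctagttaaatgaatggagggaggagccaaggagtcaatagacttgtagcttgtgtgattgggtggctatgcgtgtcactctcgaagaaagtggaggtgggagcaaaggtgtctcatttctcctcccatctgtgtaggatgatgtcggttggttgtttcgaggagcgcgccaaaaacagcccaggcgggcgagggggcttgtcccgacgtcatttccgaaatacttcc
Cox8b: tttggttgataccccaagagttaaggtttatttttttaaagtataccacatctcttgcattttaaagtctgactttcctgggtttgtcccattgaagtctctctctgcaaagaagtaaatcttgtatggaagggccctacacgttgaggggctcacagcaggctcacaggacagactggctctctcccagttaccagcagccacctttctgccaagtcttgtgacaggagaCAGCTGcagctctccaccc
Cox7a1: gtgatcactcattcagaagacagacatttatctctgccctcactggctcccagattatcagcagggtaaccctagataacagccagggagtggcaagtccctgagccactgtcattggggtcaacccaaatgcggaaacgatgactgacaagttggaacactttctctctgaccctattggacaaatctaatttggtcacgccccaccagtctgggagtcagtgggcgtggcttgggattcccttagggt

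Cox6a1 held the NRF1 motif GCGCATGC as overlapping matches on opposite strands, from 162 and 160 bases before the start, and the ETS motif CCGGAAG in reverse from 16 bases before it. Cox8b held the E-box CAGCTG from 19 bases before the start. Cox8a and Cox7a1 held none of the 6 motifs searched on both strands, the others being AAGGTCA (ERR), AAGATGG (YY1) and the MEF2 motif. A match is a run of letters and no proof of binding.

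RefSeq promoters were found for 33 of the 44 genes, and Atp5a1, Atp5mpl, Cox4i1, Cox4i2, Cox6a2, Cox6c, Cox6c2, Cyc1, Uqcrb, Uqcrc2 and Uqcrq had none in the table used. NRF1 is a factor known for switching on nuclear genes of mitochondrial proteins. Its motif was in 5 of the 33 (15.2%; Atp5g2, Atp5k, Atp5l, Cox6a1 and Cycs), against 2.56% of the 27025 genes with a promoter. The ETS motif was in 8 of 33 (24.2%) against 7.83%, the ERR motif in 2 (6.06%) against 4.70% and the E-box in 2 (6.06%; Atp5b and Cox8b) against 14.7%. The MEF2 and YY1 motifs were each in 1 (3.03%), against 3.70% and 5.18%. These shares are descriptions, and genes with the NRF1 motif included both Cox6a1, which rose with MOV, and Cycs, which fell.

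Cox6a1 rose with MOV. Its values were 16.6, 24.6, 17.3, 15.5 and 19.0 CPM in vehicle sham mice and 30.6, 24.2, 28.8, 44.8 and 39.2 CPM in vehicle MOV mice. Sham mouse 2 and MOV mouse 2 were the sole overlap, and the change was 0.87 (SE 0.17, adjusted p 0.00102). In D + Q sham the values were 21.1, 22.1, 14.3, 16.5 and 19.2 CPM and in D + Q MOV 33.4, 30.7, 35.5, 31.5 and 34.7 CPM. Those groups did not overlap, at 0.88 (SE 0.099, adjusted p 6.78e-07).

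Cox6a2, its partner, had 909.7, 1168, 981, 938 and 1007 CPM in vehicle sham and 682, 634, 590.0, 558 and 504 CPM in vehicle MOV. It fell with no overlap, by 0.74 on the log2 scale (SE 0.096, adjusted p 9.90e-06), and by 0.68 with D + Q. The ratio of Cox6a1 to Cox6a2 within a library does not depend on scaling. Cox6a1 held 1.81% ± 0.162 of the counts of the pair in vehicle sham and 5.46% ± 1.74 in vehicle MOV, and 2.02% ± 0.407 and 5.72% ± 0.678 with D + Q (SD, n = 5). CPM are not divided by transcript length, so such a share is read between groups and not as the make-up of the enzyme.

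The Cox6a1 to Cox6a2 ratio was 3.01-fold higher in vehicle MOV than in vehicle sham and 2.98-fold higher in D + Q MOV than in D + Q sham. Every MOV mouse lay above every sham mouse in both. The two-sided exact permutation test over every way to divide the 10 mice gave p = 0.00794 in each case, the smallest it can give, or 0.0254 adjusted over the 16 ratio tests.

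**Figure D2:**
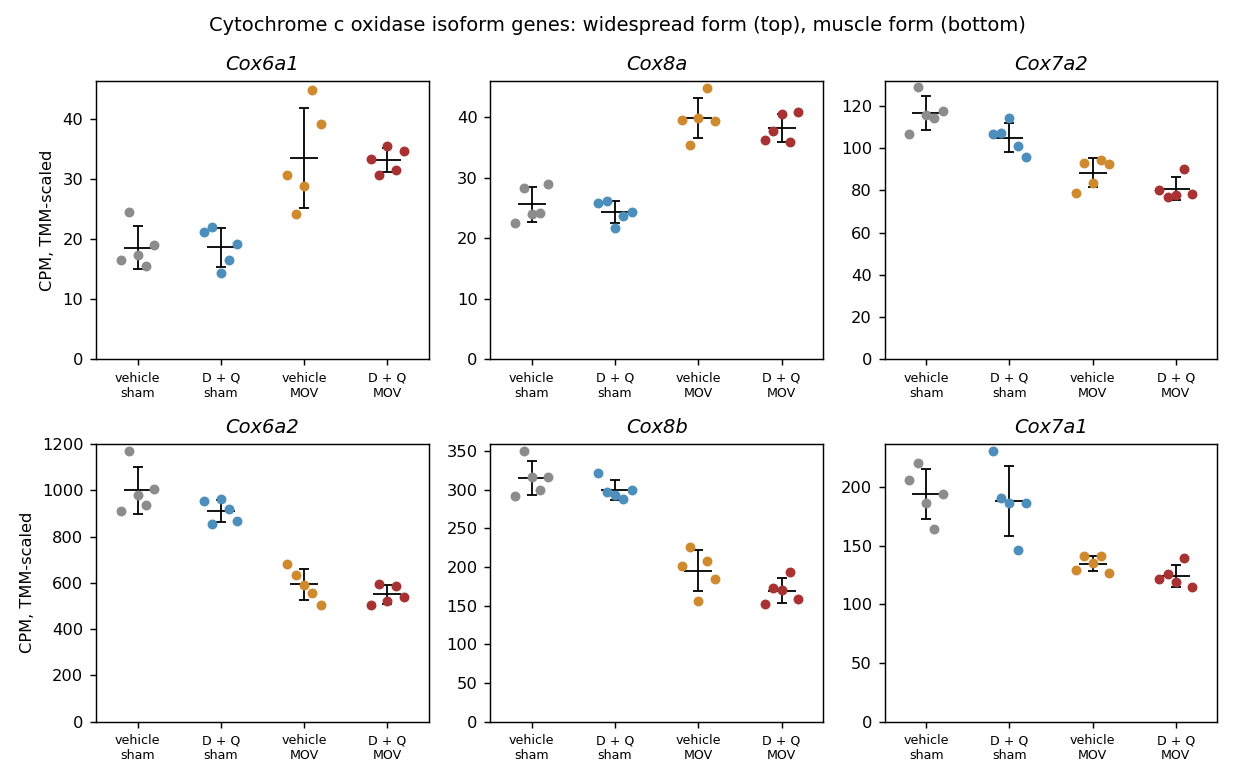
CPM (vertical axes) of Cox6a1, Cox8a and Cox7a2 (top) and of their partners Cox6a2, Cox8b and Cox7a1 (bottom) in each mouse of the 4 groups, with the mean ± SD as black bars. Cox6a1 and Cox8a are higher in the MOV groups, whereas Cox7a2 and the genes of the bottom panels are lower there with this TMM scaling.

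Cox8a, the shared form of the smallest subunit, had 22.5, 28.4, 24.0, 24.2 and 29.1 CPM in vehicle sham and 39.6, 35.5, 39.9, 44.9 and 39.4 CPM in vehicle MOV. D + Q sham mice had 25.8, 26.1, 21.7, 23.7 and 24.3 CPM and D + Q MOV mice 36.3, 37.7, 40.6, 35.9 and 40.8 CPM. The gene was higher in every MOV mouse than in any sham mouse of its treatment, at 0.65 (SE 0.088, adjusted p 1.49e-05) and 0.70 (SE 0.067, adjusted p 6.15e-08).

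Cox8b had 292, 349, 316, 299.8 and 316 CPM in vehicle sham and 202, 226, 155, 208 and 185 CPM in vehicle MOV. Every MOV mouse lay below every sham mouse, and the gene fell by 0.68 on the log2 scale with vehicle (SE 0.093, adjusted p 1.79e-05) and by 0.78 with D + Q (SE 0.066, adjusted p 1.37e-08). Cox8a made up 7.52% ± 0.543 of the counts of the pair in vehicle sham, 17.2% ± 2.47 in vehicle MOV, 7.50% ± 0.422 in D + Q sham and 18.5% ± 1.86 in D + Q MOV. The ratio was 2.53-fold higher in MOV with vehicle and 2.80-fold higher with D + Q, without overlap (exact permutation test, two-sided, p = 0.00794, adjusted p 0.0254 in each).

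Cox7a is the third position with such a pair, and it did not divide in this way. The muscle form Cox7a1 fell by 0.52 on the log2 scale with vehicle and 0.55 with D + Q, and the widespread form Cox7a2 by 0.39 and 0.33, although on total counts Cox7a2 stood at 0.032 with D + Q. Cox7a2 made up 37.6% ± 2.50 of the counts of the pair in vehicle sham and 39.6% ± 1.75 in vehicle MOV. The log2 ratio of Cox7a2 to Cox7a1 differed by 0.12 with vehicle (exact permutation test, p = 0.198, adjusted p 0.397) and by 0.21 with D + Q (p = 0.0873, adjusted p 0.20), and the groups overlapped in both.

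Cox4i1 encodes the usual form of subunit 4, and Cox4i2 a form known from lung and from low oxygen. Cox4i1 fell by 0.43 on the log2 scale with vehicle and 0.51 with D + Q. Cox4i2 had 12 to 54 counts in any mouse, and its change was 0.60 with vehicle (SE 0.30, adjusted p 0.0897) and 0.17 with D + Q (adjusted p 0.607). With a prior of 0.5 counts, the ratio of Cox4i2 to Cox4i1 was higher in every vehicle MOV mouse than in any vehicle sham mouse. The mean log2 ratio differed by 0.98 (exact permutation test, two-sided, p = 0.00794, adjusted p 0.0254). This separation rests on the prior. Without it the groups overlapped, with Cox4i2 at 0.2057% of the pair in vehicle sham mouse 1 and 0.2051% in vehicle MOV mouse 3. With D + Q the groups overlapped at 0.63 (p = 0.0317, adjusted p 0.0847 in the exact permutation test). Whether the 2 treatments differed in these ratios was not tested.

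**Figure D3:**
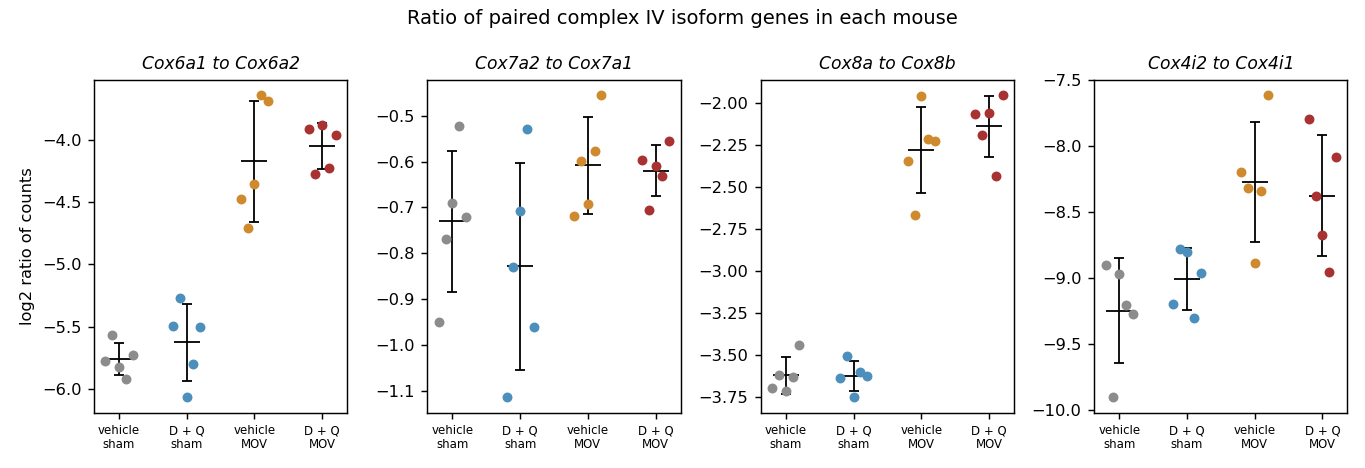
Log2 ratio of the counts of paired genes (vertical axes, left to right: Cox6a1 to Cox6a2, Cox7a2 to Cox7a1, Cox8a to Cox8b and Cox4i2 to Cox4i1) in each mouse of the 4 groups, with the mean ± SD. The Cox6a1 to Cox6a2 ratio separates MOV from sham completely, by 1.59 with vehicle and 1.58 with D + Q. The Cox8a to Cox8b ratio does so too, by 1.34 and 1.48, and the Cox7a ratio overlaps.

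Cell markers are given beside these pairs. Slow fibre markers summed to 281 to 1008 CPM in vehicle sham and 609.7 to 1636 CPM in vehicle MOV, ranges that overlap. Of 7 tested slow fibre markers 4 were higher and 1 lower. Fibroblast and macrophage markers were higher in 8 of 8 genes each with vehicle, by medians of 3.12 and 2.66 on the log2 scale. Endothelial markers were higher in 6 of 8 genes. Skeletal fibre markers were lower in 8 of 12 and higher in 1. Of all genes tested with TMM, 29.8% were lower and 30.7% higher with vehicle. The part of these cells in the change of the pairs was not tested.

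The other genes of the respiratory chain give the setting of these falls. The 6 partners encoded by mitochondrial DNA (a subunit of complex III and the mitochondrial subunits of complexes IV and V) were all lower with MOV, by medians of 0.89 with vehicle and 0.86 with D + Q on the log2 scale, and all 6 were also lower on total counts. mt-Co3, the one with the lowest p, changed by -0.97 and -0.89. Genes of complex I were taken by name alone (Ndufa, Ndufb, Ndufc, Ndufs or Ndufv and a number). Of 39 tested, 37 fell and 1 rose with vehicle (median -0.50), and 38 fell and 1 rose with D + Q (median -0.54). On total counts 15 were lower and 4 higher with vehicle (median -0.12), and 22 lower and 2 higher with D + Q (median -0.17). The one that rose with TMM was Ndufa4l2, known as a gene induced by low oxygen, at 1.33 and 1.26. Ndufa4 and Ndufa4l2 are in this list by their names, which does not make them subunits of complex I. All 4 complex II genes fell under both treatments (3 of 4 on total counts), Sdha, its flavoprotein, by 0.95 and 0.94 on the log2 scale.

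Genes that assemble the complexes fell too, fewer of them on total counts. Beside these lists and those of the preceding paragraph, 29.8% of all genes were lower with vehicle and 30.9% with D + Q under TMM. On total counts 9.99% and 11.1% of all genes were lower and 52.5% and 56.2% higher. The medians over all genes were then 0.36 and 0.39. For complex III, 4 of 6 factors were lower with vehicle and 5 of 6 with D + Q, Uqcc1 by 1.01 and 0.99 on the log2 scale, whereas total counts gave 2 lower and 2 higher with vehicle and 1 lower and 1 higher with D + Q. For complex IV, 18 of 25 were lower with vehicle (median -0.29) and 21 of 25 with D + Q (median -0.32), although on total counts 5 were lower under each treatment, with 2 and 1 higher, and the medians were 0.09 and 0.05. Lrpprc, which stabilises mitochondrial messenger RNA, changed by -0.84 and -0.80. For complex V, 6 of 6 were lower under both treatments, Atpaf1 by 0.90 in each, and 3 of 6 were lower on total counts. Of 10 genes of the outer membrane and protein import, 7 and 9 were lower, Vdac3, a pore of the outer membrane, by 0.81 in each, while on total counts 4 were lower and 2 higher under both treatments. No gene of the assembly or outer membrane lists was called higher with TMM.

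**Figure D4:**
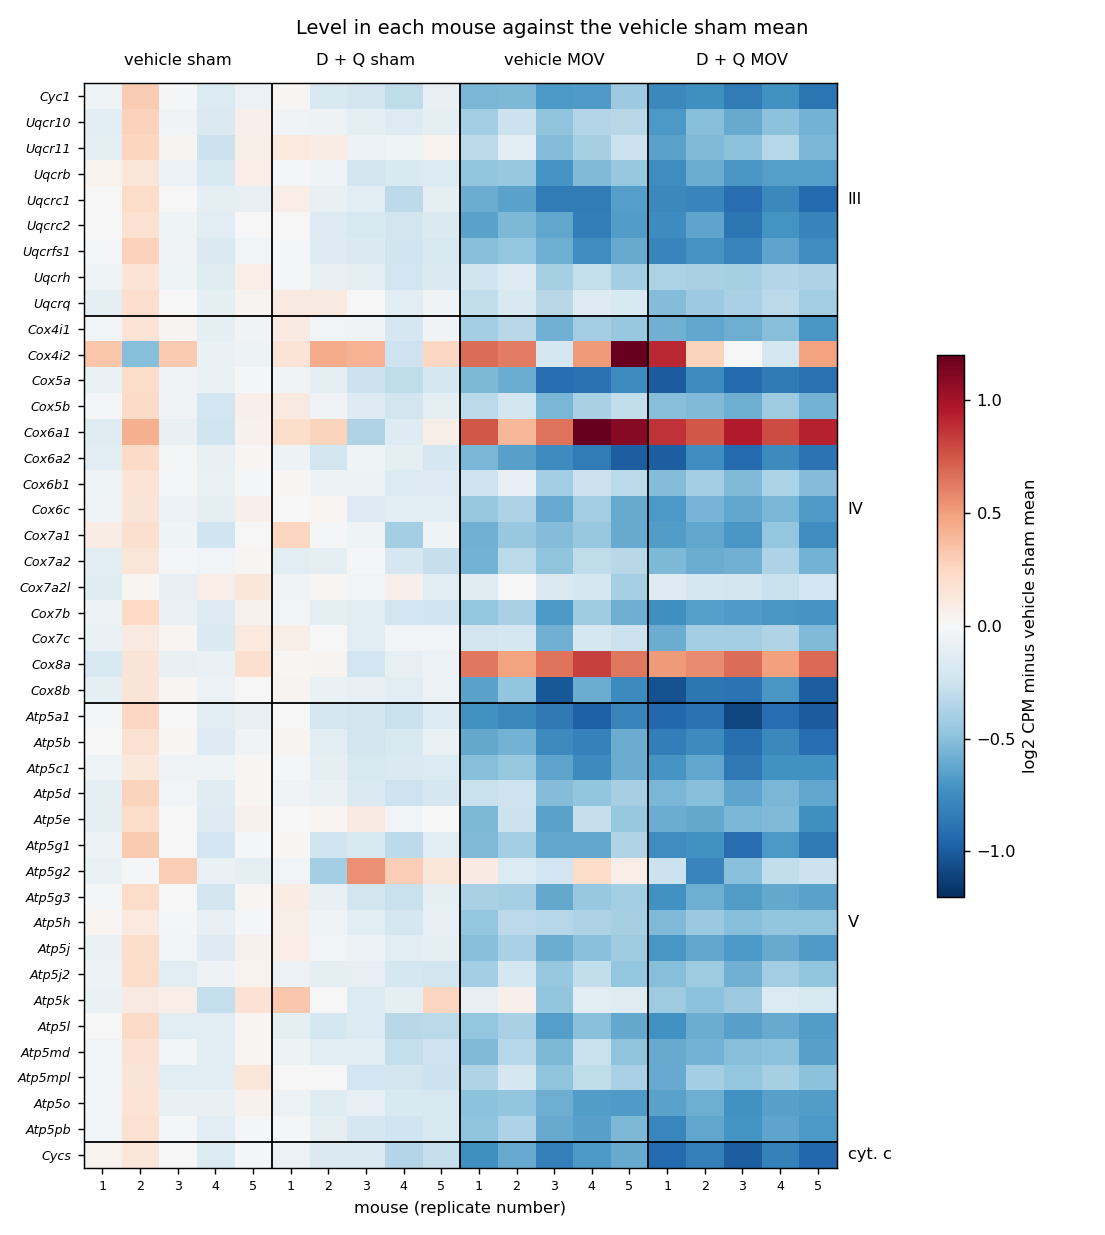
Log2 CPM of 42 genes of complexes III, IV and V and cytochrome c (rows) in each of 20 mice (columns), shown as the difference from the mean of vehicle sham with colours limited to 1.2 on either side. The MOV columns are below the sham mean for most genes, Cox6a1 and Cox8a are above it, and vehicle sham mouse 2 is the highest of its group in 36 genes.

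As means over its genes, complex III stood at 8.36 ± 0.142 log2 CPM in vehicle sham, 8.26 ± 0.085 in D + Q sham, 7.88 ± 0.080 in vehicle MOV and 7.73 ± 0.052 in D + Q MOV (SD, n = 5). Complex V ran in the same order, at 8.52, 8.41, 8.07 and 7.90 log2 CPM, and so did complex IV, at 7.23, 7.16, 6.98 and 6.85 log2 CPM. Within MOV and within sham, the D + Q mean was below the vehicle mean for each complex, which leads to the comparisons of the treatments.

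In MOV muscle, edgeR called none of the 43 genes tested between D + Q and vehicle (Cox6b2 passed the minimum count here), nor did DESeq2 or limma-voom, and edgeR called 0.00% of the 15238 genes in either direction. All 43 log2 changes were below 0 with TMM and 41 of 43 on total counts, with a median of -0.17 (0.00 over all genes). At an unadjusted p under 0.05, 18 genes were lower and 0 higher in edgeR, beside 4.61% lower and 4.20% higher of all genes. DESeq2 put 27 genes there, where 819 of the 15238 genes in the fit were lower. limma-voom put 20 there (5.11% of all genes) and edgeR on total counts 10 (2.30%). The number was 11 without vehicle MOV mouse 2 or mouse 5 or D + Q MOV mouse 1 or mouse 3, where 3.09% to 3.33% of all genes were lower, and 25 at most, without vehicle MOV mouse 3 (5.50%). The genes share their mice, so these counts are not independent. The 8 fibroblast markers summed to 6178 to 12232 CPM in vehicle MOV and 10896 to 15150 in D + Q MOV. The 12 skeletal fibre markers summed to 101579 to 137418 CPM (median 123007) in vehicle MOV and 99695 to 123068 CPM (median 120341) in D + Q MOV. The part of either list in the lower levels was not tested.

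The 18 were 5 genes of complex III, Cycs, 5 of complex IV and 7 of complex V. In 5 genes every D + Q MOV mouse lay below every vehicle MOV mouse, namely Uqcr10, Cyc1, Atp5g1, Atp5g2 and Atp5j, where 0.755% of all genes tested separated downward and 0.748% upward. Atp5g2 had the lowest p of complex V, with 43.0, 35.7, 34.1, 46.8 and 42.4 CPM with vehicle and 33.6, 23.1, 28.3, 32.6 and 33.5 CPM with D + Q. Its change was -0.43 (SE 0.11, unadjusted p 0.00174, adjusted p 0.523).

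Uqcr10, a small subunit of complex III, had 179, 201, 171, 188 and 189.9 CPM in vehicle MOV and 148, 168, 157, 170.0 and 161 CPM in D + Q MOV, a change of -0.21 (SE 0.071, adjusted p 0.523). The highest D + Q mouse was just under the lowest vehicle mouse. Cox6b1 changed by -0.21 (adjusted p 0.523) and Cycs by -0.22 (SE 0.072, adjusted p 0.523), and for each the groups overlapped.

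**Figure D5:**
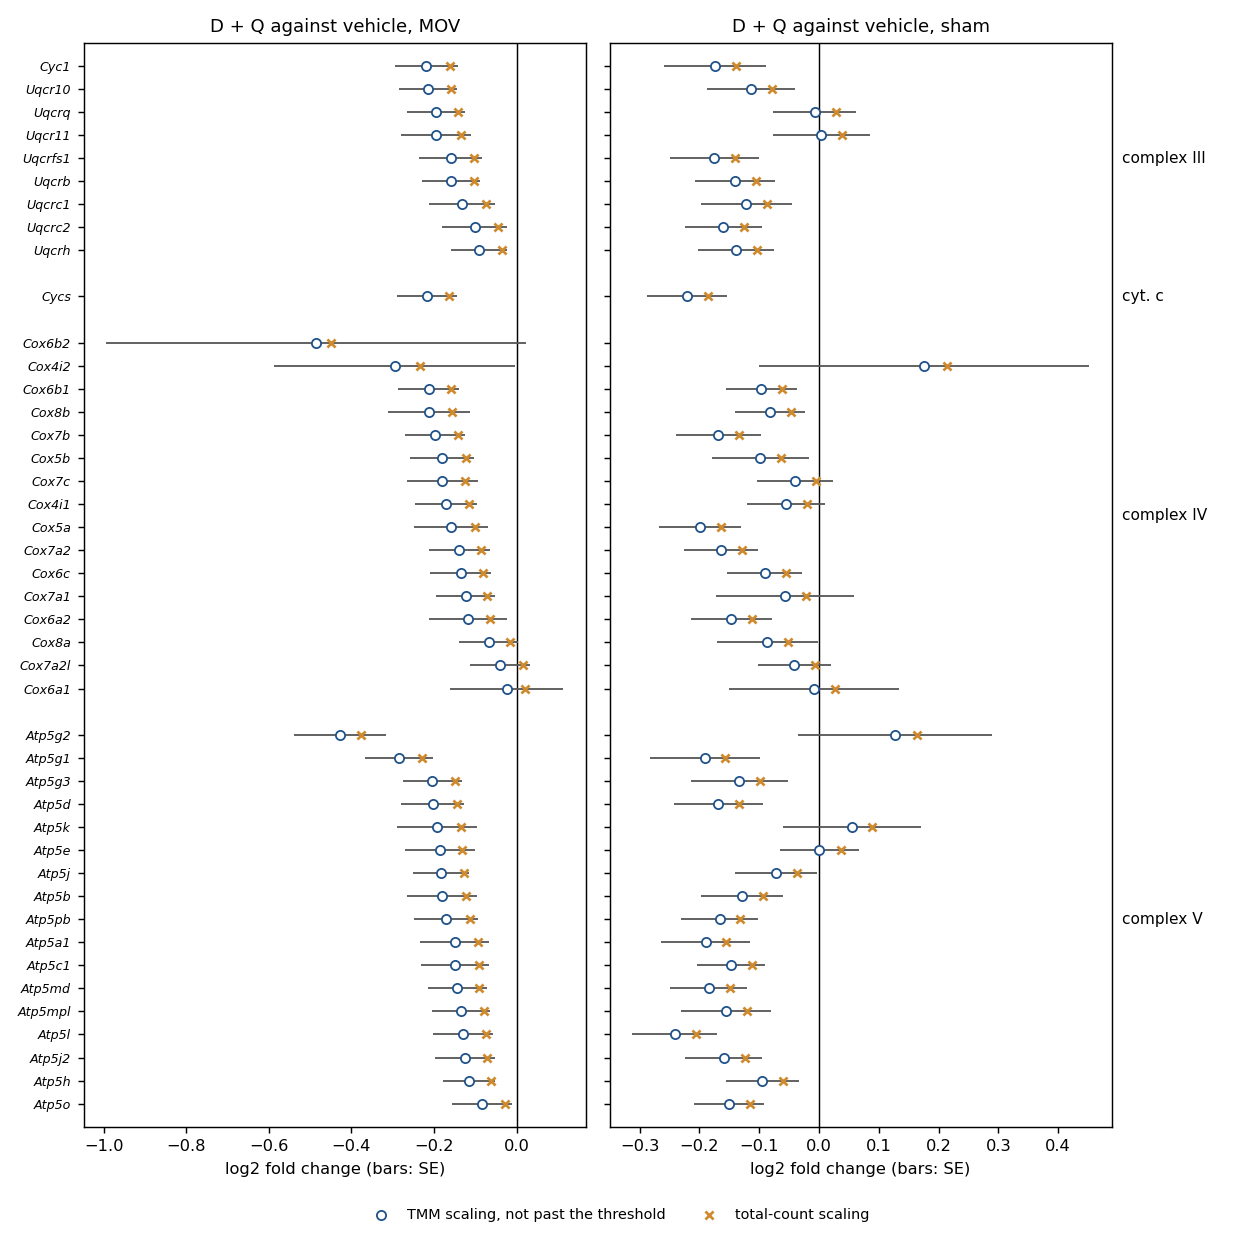
Log2 fold change of D + Q against vehicle (horizontal axis, ± SE, 5 mice per group) in MOV (left) and sham (right) muscle for the tested genes of complexes III, IV and V and cytochrome c, with orange crosses for scaling by total counts. No point is filled, since no gene had an adjusted p under 0.05, and most points lie to the left of 0.

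In sham muscle, edgeR called 0 of 42 genes between D + Q and vehicle, beside 0.0287% lower and 0.187% higher of 13926 genes, and DESeq2 and limma-voom called 0 as well. On total counts edgeR called 0 members too, beside 0.0287% lower and 0.323% higher of all genes. The median was -0.13 (-0.00 over all genes). At an unadjusted p under 0.05 there were 17 lower and 0 higher in edgeR, where 4.81% and 5.39% of all genes stood. DESeq2 had 17 lower, where 644 of the 13926 genes in the fit were lower. limma-voom had 14 (5.23% of all genes) and edgeR on total counts 6 (2.53%). Without vehicle sham mouse 2, the highest of its group in most genes, 5 genes were past that limit (3.86% of all genes), and without vehicle sham mouse 5 there were 11 (4.78%), while leaving out D + Q sham mouse 4 or mouse 5 gave 8 (3.98% and 3.86%). The number was 24 at most, without D + Q sham mouse 1 (5.44%). The summed fibroblast markers were 491 to 729.6 CPM in vehicle sham and 606 to 1287 CPM in D + Q sham. Skeletal fibre markers summed to 181096 to 203592 CPM (median 187843) in vehicle sham and 189696 to 205666 CPM (median 198274) in D + Q sham. The part of either list in the lower levels was not tested. The groups overlapped in every one of the 42 genes, where 0.768% of all genes tested separated downward and 1.34% upward.

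By complex, the medians in sham muscle were -0.14 for III, -0.09 for IV and -0.15 for V. Atp5l, a membrane subunit of complex V, had 382, 448, 350.4, 351 and 386 CPM with vehicle and 354, 329.9, 341, 303 and 306 CPM with D + Q. A single D + Q mouse, mouse 1, reached above the lowest vehicle mice, and the change was -0.24 (SE 0.071, unadjusted p 0.00311, adjusted p 0.220). Cycs changed by -0.22 (adjusted p 0.230), Cox5a by -0.20 (adjusted p 0.321) and Uqcrc2 by -0.16 (adjusted p 0.407).

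None of the paired genes of complex IV differed in ratio between D + Q and vehicle past the threshold, with exact permutation p-values from 0.278 to 0.952. In MOV muscle the log2 ratio of Cox6a1 to Cox6a2 differed by 0.12 and that of Cox8a to Cox8b by 0.14. In sham muscle these differences were 0.14 and -0.00.

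Whether D + Q changed the response to MOV was tested as an interaction over all 20 mice, and edgeR called 0 of 43 genes, beside 0.00637% of 15700 genes in each direction. DESeq2 and limma-voom called 0 too. At an unadjusted p under 0.05 there was 1 gene in edgeR, Atp5g2 of the c ring, with 1 in DESeq2 and 2 in limma-voom, beside 3.17% of all genes lower and 2.54% higher in edgeR. The next were Uqcrq at -0.19 (SE 0.095, unadjusted p 0.053) and Atp5e at -0.19 (unadjusted p 0.0865).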

How the data were processed

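RNA of plantaris muscle from 20 mice was sequenced, 1 library per mouse. Per the submitters' notes and methods, the authors used STAR 2.7.8a, Partek and GRCm39, and the deposited table holds estimated counts, not normalized (28.8% of values are not whole). Counts were rounded here. Totals of 17887532 to 26234518 limit precision for low genes, and no pair of libraries in a group differed by as little as sampling noise (ratio to counting variance at least 7.12). Titles gave the groups and mouse numbers. The labels give each mouse as a separate sample, and p-values measure the spread between mice.

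Genes reaching 10 counts in 5 or more mice of a comparison were tested with edgeR 4.0.16 (R 4.3.3, robust quasi-likelihood, TMM, Benjamini-Hochberg over all genes tested, threshold 0.05), on the 10 mice compared or, for the interaction, all 20. CPM in the text carry TMM factors over all 20 mice. Standard errors are those of the fitted log2 changes. Ratios of paired genes used a prior of 0.5 counts and two-sided exact permutation tests, 4 ratios in 4 comparisons. MOV comparisons and treatment comparisons share mice with each other. Scripts were tested on simulated data.

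Genes named are the paired genes of complex IV and subunit c, Cycs, Cyc1, Uqcrfs1, the 3 members with the lowest p in each complex (1 where none was called), the extremes of each complex in MOV against sham, the 3 lowest p in the interaction, and the lowest p of each pathway list. Those outside this rule are the 11 lower and 5 higher on total counts, the 5 without overlap, Atp5k, Cox6c2, Atpif1 and Ndufa4l2, chosen after their values were seen. Members and lists were chosen with earlier results of these data known. Alternatives were DESeq2 1.42.0, limma-voom (limma 3.58.1), RLE factors, total counts, scaling without mitochondrial DNA genes, other count minimums, all mice in one fit, a replicate block and each mouse left out. Names were matched to GENCODE (GRCm39) for 42 members and to RefSeq (GRCm38.p6) for promoters.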

Additional observations from a re-analysis of the deposited data

Results flagged for a closer look

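In 7 of 144 groups of 5 mice examined (the named genes and the means of each complex), one mouse stood far from the rest, with a gap to its neighbour over 0.71 of the range of the group. Chance alone gives about 1 in 20 such groups. In vehicle sham, mouse 2 was the high one for Uqcrc1 (805 CPM), Cox5a (488 CPM) and Cox6b1 (279 CPM), and mouse 3 for Atp5g2 (49.3 CPM). In D + Q sham, mouse 1 was high for Uqcrc2 (493 CPM). In D + Q MOV, mouse 4 was high for Cox7a2 (90.2 CPM). In vehicle MOV, mouse 3 had a low mean over complex IV, 6.82 log2 CPM.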

How the results depend on the processing

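Of the counts of called members and the ratios, 133 values under alternatives other than a left-out mouse were labelled as kept and 7 as moved. A count was kept when it lay within a fixed factor of the main count, so it could shift somewhat. A ratio was kept when its direction and its side of an unadjusted p of 0.05 held. Total counts gave 11 lower and 5 higher (vehicle MOV against sham), 20 lower and 4 higher (D + Q), and 10 and 6 genes at an unadjusted p under 0.05 for D + Q against vehicle in MOV and sham. With total counts 17 members stood above 0 in MOV against sham with vehicle, against 4 with TMM, and 12 against 3 with D + Q. Among the genes named for those comparisons, the direction reversed for Cox6b1 (0.12), Cox7a2l (0.20) and Uqcrq (0.15) with vehicle, and for Atp5mpl (0.077), Cox6b1 (0.024), Cox7a2 (0.032), Cox7a2l (0.22) and Uqcrh (0.16) with D + Q. These follow the shift of all genes given above. Under limma-voom the value of Atp5g2: MOV against sham, vehicle was -0.015.

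With each mouse left out in turn, D + Q against vehicle had 11 to 25 genes (MOV) and 5 to 24 genes (sham) at an unadjusted p under 0.05. The share of all genes lower by that limit ran from 3.09% to 7.87% in MOV and from 3.86% to 5.44% in sham. Atp5g2 with vehicle ran from -0.026 to 0.097 and Cox4i2 with D + Q from -0.011 to 0.29 in MOV against sham. The D + Q MOV against sham ratios ran from 0.14 to 0.28 for Cox7a2 to Cox7a1 and from 0.49 to 0.78 for Cox4i2 to Cox4i1. Without D + Q sham mouse 4 the Cox7a2 to Cox7a1 ratio had an unadjusted permutation p under 0.05. The p-values of ratios with a mouse left out were not adjusted. For D + Q against vehicle the ranges were -0.012 to 0.26 (Cox6a1 to Cox6a2), -0.039 to 0.027 (Cox7a2 to Cox7a1) and -0.26 to 0.058 (Cox4i2 to Cox4i1) in MOV, and -0.032 to 0.043 (Cox8a to Cox8b) in sham. The cause was not tested.

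With the mouse number as a replicate block, D + Q against vehicle had 11 genes at an unadjusted p under 0.05 in MOV and 19 in sham. Of all genes, 4.11% and 4.58% were lower by that limit. MOV against sham had 36 lower and 2 higher with vehicle, where 4275 of 14601 genes were lower and 4419 higher. With D + Q it had 38 lower and 2 higher, where 4414 of 14913 genes were lower and 4997 higher, and Cox7a2l lost its call. Mice with the same number in their titles correlated between -0.15 and 0.185. Such weak correlations cannot exclude a pairing or a shared batch. Depth limits what could be seen for Cox6b2 and Cox6c2 (at most 18 counts in any mouse) and for Cox4i2 (12 to 54 counts).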
